A study of Mus musculus with 6 samples.

Results

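The subunits of the nuclear RNA polymerases I, II and III and the mitochondrial RNA polymerase were followed in RAW264.7 cells, a mouse macrophage line derived from a leukaemia. The samples were 6 libraries of cells transfected with either a miR-125b mimic, a synthetic RNA meant to raise the level of that microRNA, or a negative control. Members were chosen by name: every gene of the deposited table whose mouse symbol begins with Polr1, Polr2 or Polr3, and Polrmt. This gave 29 genes of 16665, and all 29 passed the filter of a mean FPKM of at least 1 that left 10166 genes for testing. FPKM is the number of sequenced fragments of a gene, scaled to its length and to the depth of the library. The mimic group (miR-125b overexpression in the labels) and the negative control group (NC, miR-125b WT in the labels) hold 3 libraries each, made with an mRNA library kit from total RNA; transfection is the treatment of both. The labels do not give the dose, the time after transfection or the arm of miR-125b in the mimic. Nor do they say whether separate cultures gave the 3 libraries of a group, so a p-value here reflects variation among libraries that may be technical only. The level of miR-125b was not analysed here.

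Transcription in mammalian cells is divided between related enzymes. Polymerase I makes the large ribosomal RNA precursor in the nucleolus, polymerase II makes messenger RNAs and most microRNA precursors, and polymerase III makes transfer RNAs, 5S ribosomal RNA and other short RNAs. Each is built around its own pair of large catalytic subunits. Some of the small subunits are common to all of these enzymes, and others only to polymerases I and III. Mitochondrial DNA is read by a single-subunit enzyme, Polrmt, which is related to phage polymerases. In RAW264.7 cells, as in other dividing cells, the demand for ribosomes and transfer RNAs keeps polymerases I and III active.

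Depth, recovered from the whole steps of low FPKM values, lay between 14.45 M and 16.81 M fragments per library (M, mega), and 13266 to 15470 genes were above 0, fewest in NC 3. The subunit genes rested on 8 to 2456 fragments per library, and without molecular identifiers fragments are not independent molecules. NC 3 was apart from the other controls in the whole table: on log2(FPKM + 1) over the tested genes it correlated with NC 1 and NC 2 at r = 0.944 and 0.946, while these reached 0.993 with each other, and NC 3 correlated best with mimic 3 (0.974). Of 10 macrophage markers 8 were tested and all 8 were lower in the mean (summed FPKM 7136 to 8616 in the controls and 6379 to 6649 with the mimic; Lyz2 makes up most of it), none passing limma. Without NC 3, limma called 3 of the 8 lower, where it called 12.2% of all genes lower. They were Cd68 (log2 fold change −0.50, adjusted p = 0.0108), Lyz2 (−0.39, 0.028) and Spi1 (−0.28, 0.0292). With a trend on gene length and GC removed, 4 of the 8 were higher. Their part in the subunit values was not tested. Mrc1 and Cd86, which belong to other macrophage states, read at most 0.041 and 0.11 FPKM. Values were present for only 1 of 5 T cell, 2 of 4 B cell, 1 of 5 fibroblast, 2 of 3 endothelial and 0 of 4 epithelial markers. Those present summed to at most 0.48 FPKM in any library, each type taken alone. The absent markers have no value here.

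A microRNA pairs with messages mainly through its seed, bases 2 to 8. The mature mouse miR-125b-5p from RefSeq (GRCm38.p6) is shown first with the seed in capitals, because it defines the sites that were searched. Below it are the sites found in members, written 5′ to 3′ as in the message, with the site in capitals. They come from the longest 3′ untranslated region (3′ UTR) annotated by GENCODE M21 on GRCm38.
miR-125b-5p: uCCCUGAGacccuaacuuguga
Polr3f, chr2:144539936-144539965, plus strand: tgtagaccaaaCTCAGGGAtctgcctgcct
Polr3c, chr3:96711934-96711962, minus strand: ctgggatcaaaCTCAGGGcctttcacatg
Polr1a, chr6:71978952-71978980, plus strand: aagaggctccaCTCAGGGctgctttcctg

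The 8mer site searched was CTCAGGGA. Its shorter forms were the 7mer-m8, CTCAGGG, and the 7mer-A1, TCAGGGA. All were searched on the message strand only, where an 8mer contains both shorter ones and was counted once. Of the 29 subunit genes, 3 (10.3%) held one, against 2064 of 9313 tested genes with a 3′ UTR (22.2%). The 3′ UTRs of the subunit genes were also shorter, with a median of 573 bases against 1150. Polr3f holds the 8mer, starting at base 1258 of its 3306, and Polr3c and Polr1a hold a 7mer-m8 starting at base 28 of 489 and base 448 of 3960. None of the 3 was lower with the mimic in the mean: the log2 fold changes were 0.23 (SE 0.15), 0.13 (SE 0.14) and 0.12 (SE 0.19). Without NC 3, those of Polr3c and Polr1a were −0.0028 and −0.086, and that of Polr3f was −0.019 once a trend of each library on gene length and GC content had been taken out. Seed sites of the other arms, searched likewise, were present in 1 member for miR-125b-1-3p and in 7 (24.1%) for miR-125b-2-3p, against 2.6% and 20.4% of the tested genes.

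Subunit messages covered a wide range of levels. On the scale of FPKM averaged over the 6 libraries, the highest were Polr2m (57.4), an accessory subunit found on part of polymerase II that represses initiation, and Polr2d (44.4), a stalk subunit. Then came Polr1d (34.3), Polr3gl (33.8), Polr2g (30.1) and Polr1c (28.7), whose ranges over the libraries overlap. The catalytic subunits of polymerase II, Polr2b (17.1) and Polr2a (16.9), stood close together, and those of polymerase III, Polr3b (5.54) and Polr3a (4.23), and of polymerase I, Polr1a (2.67) and Polr1b (2.33), were lower. Polr3d had the lowest level of all (1.06). FPKM divides by the length of all annotated exons of a gene, which exceeds that of the main message where minor transcripts are long. Rescaled to the principal transcript of the annotation, Polr1d would stand highest (87.2), ahead of Polr2m (63.2) and Polr1c (49.8), and Polr2c would move from 6.003 to 19.97, next to Polr2b (19.3) and Polr2a (17.75). The rank of single subunits therefore rests on the gene model, whereas comparisons between libraries within a gene do not.

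**Figure D1:**
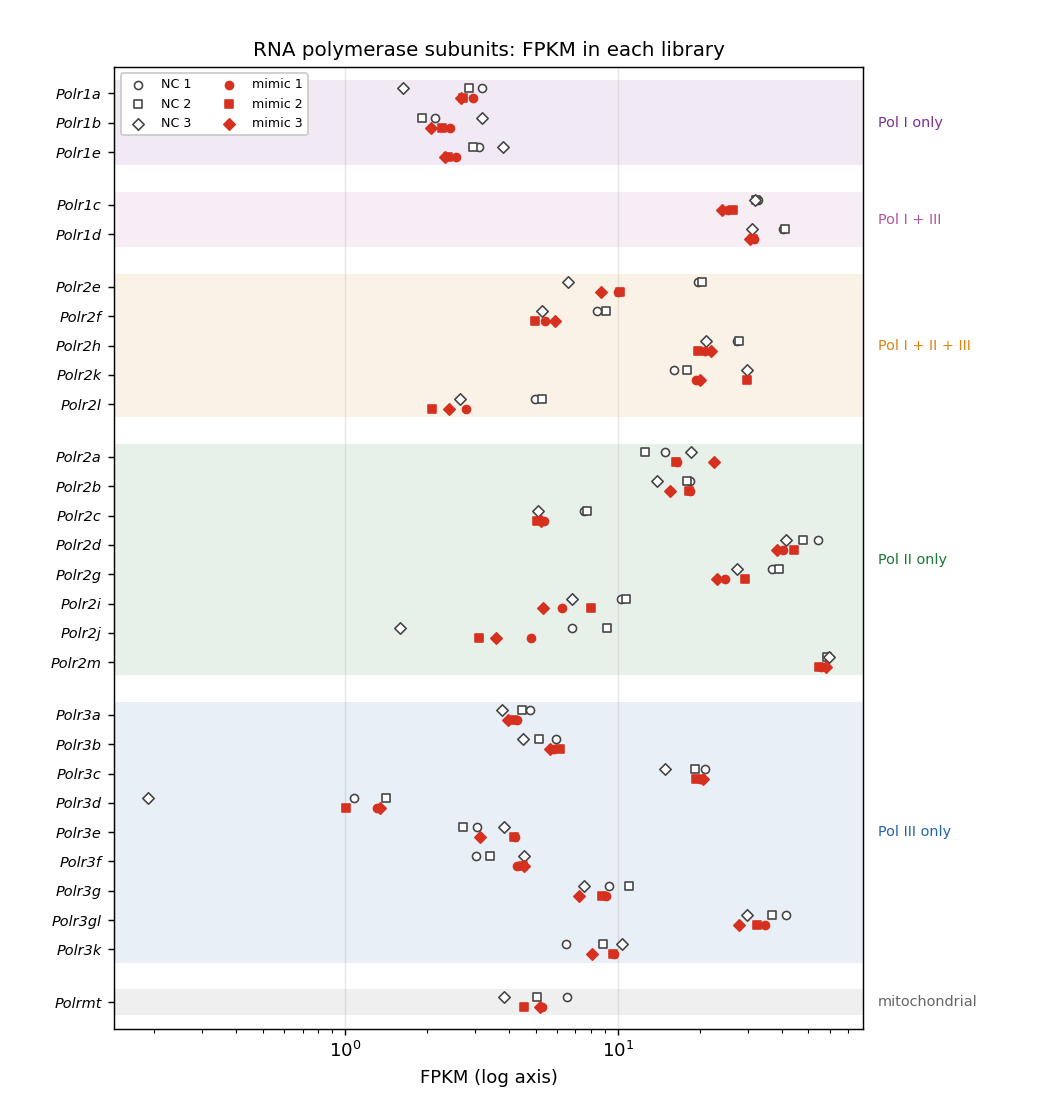
FPKM of 28 subunit genes (log axis) in each library: open grey symbols are the negative controls, filled red symbols the mimic libraries, and the marker shape gives the library number. Levels run from 0.191 for Polr3d in NC 3 to 59.5 for Polr2m in NC 3, and in 24 of these 28 genes the open diamond of NC 3 lies nearer to the mean of the red symbols than to that of NC 1 and NC 2.

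Comparing mimic with negative control, no subunit gene passed the test: limma called 0 of the 29 at an adjusted p of 0.05 (0% of all 10166 genes tested were called), and voom on recovered fragments also called 0. The smallest adjusted p among the members was 0.3325. A log2 fold change here is mimic minus control on log2(FPKM + 1), with the standard error (SE) of the moderated fit, and this scale understates the change of low genes. In the mean, 19 subunits were lower and 10 higher, with a median log2 fold change of −0.069, where 43.7% of all genes were lower and the median was 0.041. The members' median was −0.17 without NC 3, −0.039 without mimic 3 and between −0.092 and −0.058 without any other single library. At an unadjusted p under 0.05 there were 3 lower members (5.26% of all genes) and 0 higher ones (7.96%). By voom there were 1 lower member (481 of 10137 genes) and 0 higher ones (912 of 10137). The 3 values of the mimic all lay under the 3 control values in 3 members (7.49% of all genes), and all above in 0 (12.6%). In bulk libraries fewer cells with a message and less of it per cell cannot be told apart.

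The direction differed between the kinds of subunit. Of the 5 subunits common to polymerases I, II and III, 4 were lower (median log2 fold change −0.39), as were both of those common to I and III (median −0.29) and 6 of the 8 that belong to polymerase II alone (median −0.26). Of the 10 that belong to polymerase III alone, 6 were higher (median 0.12), beside 56.3% of all genes. Polymerase I alone had 1 higher and 2 lower (median −0.053). Single libraries moved these medians. Without NC 3 that of the subunits common to all nuclear enzymes was −0.60, that of polymerase II −0.39 and that of polymerase III 0.034, with 5 of 10 lower. The first was −0.26 without NC 1 and −0.24 without NC 2, and that of polymerase II was −0.11 and −0.14. The median of polymerase III was 0.073 without NC 1. For polymerase I it ranged from −0.16 without NC 2 to −0.0099 without mimic 3. No test compared these groups with each other, and they also differ in gene length, with median exon lengths of 1650 bases in the first group and 4464 bases in polymerase III.

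**Figure D2:**
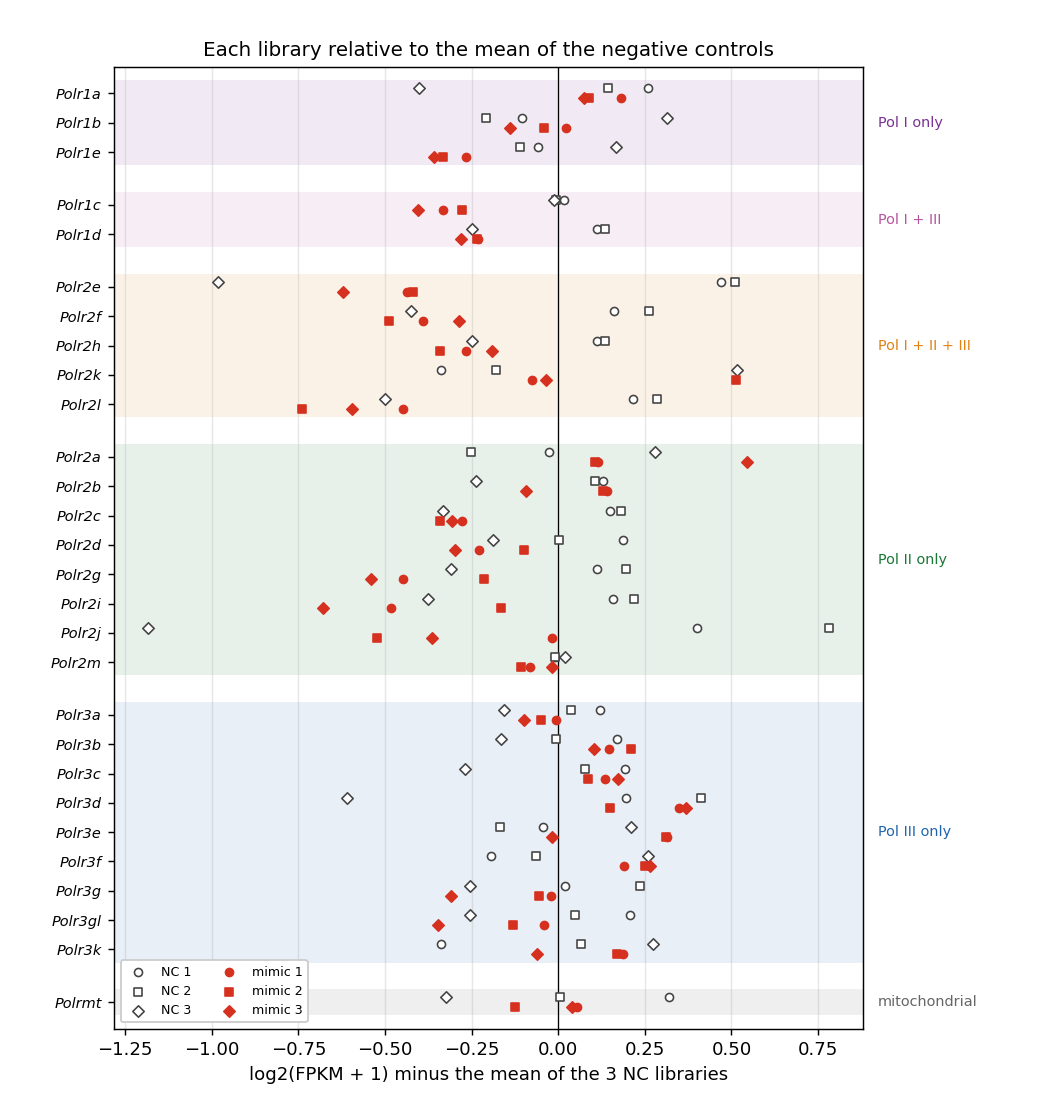
Value of each library on log2(FPKM + 1), minus the mean of the 3 negative controls of that gene (horizontal axis), for 28 subunit genes grouped by enzyme. Red mimic symbols lie left of all open control symbols in Polr1e, Polr1c and Polr2m, whereas in Polr2e, Polr2f, Polr2h and Polr2l they lie left of NC 1 and NC 2 and beside NC 3.

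Polr1c and Polr1d form the dimer on which polymerases I and III are assembled, the counterpart of Polr2c and Polr2j in polymerase II. Polr1c (ENSMUSG00000067148; GRCm38 chromosome 17, 46243920 to 46248054, minus strand) read 32.6, 32.0 and 31.9 FPKM in NC 1, 2 and 3 and 25.4, 26.4 and 24.1 in mimic 1, 2 and 3. The controls had an SD of 0.356 FPKM and the groups did not overlap. Its log2 fold change of −0.34 (SE 0.10) had the smallest p of all members (limma, unadjusted p = 0.0106, adjusted p = 0.3325). It was −0.18 after removal of the length and GC trend, and −0.057 with NC 3 left out as well. Polr1d read 40.3, 40.9 and 31.1 FPKM in the controls and 31.5, 31.4 and 30.4 with the mimic. Only NC 1 and NC 2 were high, and NC 3 lay within the mimic range (log2 fold change −0.25, SE 0.13). Their summed FPKM was 72.9, 72.9 and 63.1 in the controls and 56.9, 57.8 and 54.5 with the mimic, so the sums of the groups did not overlap. For every other kind of subunit the sums overlapped between groups. So did those of all members, at 397.87 to 469.46 FPKM in the controls and 381.75 to 408.00 with the mimic. The summed FPKM of the whole table did not overlap, at 300019 to 308447 in the controls and 281109 to 284750 with the mimic. A lower sum without overlap is therefore not particular to Polr1c and Polr1d.

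The subunits found in all of the nuclear enzymes were lower in the mean, apart from Polr2k, and in none of them did the groups separate. Polr2e, the RPB5 subunit at the downstream jaw, read 19.7, 20.3 and 6.57 FPKM in the controls and 10.1, 10.2 and 8.72 with the mimic. NC 1 and NC 2 were above all mimic libraries and NC 3 was below all of them, which left a log2 fold change of −0.49 with an SE of 0.38. Polr2l, the RPB10 subunit that holds a zinc ion, read 4.97, 5.26 and 2.64 FPKM in the controls and 2.77, 2.08 and 2.40 with the mimic. NC 3 lay just under mimic 1, the highest of the mimic libraries. Its log2 fold change was the lowest of the members (−0.59, SE 0.23; limma, unadjusted p = 0.0334, adjusted p = 0.351), and it was −0.46 after removal of the length and GC trend. It rested on few fragments, between 57 and 146 per library.

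Polr2f, the RPB6 subunit that anchors the clamp, read 8.40, 9.08 and 5.27 FPKM in the controls and 5.42, 4.99 and 5.89 with the mimic. Polr2h, the RPB8 subunit, read 27.4, 27.8 and 21.1 and then 20.8, 19.7 and 21.97. Both repeated the picture of a high NC 1 and NC 2 with NC 3 inside the mimic range (log2 fold changes −0.39, SE 0.19, and −0.27, SE 0.14). Polr2k, the RPB12 subunit and the shortest gene of the set at 624 exon bases, went the other way: 16.03, 18.01 and 29.7 FPKM in the controls and 19.4, 29.7 and 19.999 with the mimic. NC 3 and mimic 2 were high and the other libraries close together, with no separation of groups (log2 fold change 0.13, SE 0.26). The annotation holds a processed pseudogene named after it, Polr2k-ps, with which reads could be shared, so its value is uncertain.

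Polymerase II itself had higher means for its large subunits and lower means for its small ones, none passing the test. The largest subunit Polr2a (GRCm38 chromosome 11, 69733997 to 69758637), which carries the catalytic centre and the repeated tail that is phosphorylated during transcription, read 14.9, 12.6 and 18.6 FPKM in the controls and 16.5, 16.4 and 22.6 with the mimic. NC 3 and mimic 3 were the highest of their groups, and the groups overlapped (log2 fold change 0.26, SE 0.18). Polr2b, its partner in the active centre, read 18.3, 18.01 and 13.99 and then 18.5, 18.3 and 15.6 FPKM. Here NC 3 and mimic 3 were the lowest of their groups, and the difference was close to 0 (log2 fold change 0.059, SE 0.14). The ratio of Polr2b to Polr2a, taken within a library, was accordingly 1.23, 1.43 and 0.751 in the controls and 1.118, 1.115 and 0.689 with the mimic.

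The smaller polymerase II subunits had lower means with the mimic. Polr2g, the RPB7 subunit that forms the stalk with Polr2d, read 36.9, 39.2 and 27.3 FPKM in the controls and 24.7, 29.2 and 23.1 with the mimic (−0.40, SE 0.17; limma, unadjusted p = 0.0446, adjusted p = 0.368). Only NC 3 fell within the mimic range, under mimic 2. Polr2d read 54.2, 47.6 and 41.5 and then 40.4, 44.3 and 38.4 FPKM (−0.21, SE 0.13), again with NC 3 the lowest control and in the range of the mimic libraries. Polr2i, the RPB9 subunit that contributes to RNA cleavage and fidelity, had means of 9.27 ± 2.16 and 6.51 ± 1.37 FPKM (SD, n = 3; −0.44, SE 0.21), and Polr2c 6.79 ± 1.46 and 5.21 ± 0.135 (−0.31, SE 0.16). For Polr2j, the partner of Polr2c, the controls were spread over 6.78, 9.14 and 1.60 FPKM around mimic values of 4.82, 3.10 and 3.58, and the SE of 0.47 exceeded its log2 fold change of −0.30. Polr2m had the smallest SE of the 29 genes: 58.4, 58.4 and 59.5 FPKM in the controls and 55.5, 54.5 and 58.0 with the mimic. Its groups did not overlap, but the difference was small (−0.069, SE 0.096).

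Some of these genes share exon bases with a gene on the other strand, and whether the counting used strand is not stated in the labels. In Polr2i 26.8% of the exon bases are shared with Tbcb, which read 7.31 to 17.2 FPKM and, like Polr2i, was highest in NC 1 and NC 2. In Polr2c 18.1% are shared with Dok4 (at most 0.980 FPKM) and in Polr2j 15.9% with Lrwd1 (1.69 to 3.11). The values of Polr2i and Polr2j are uncertain for this reason.

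Polymerase III subunits lay on both sides of 0. The catalytic subunits Polr3a (4.78, 4.45 and 3.77 FPKM in the controls; 4.29, 4.13 and 3.96 with the mimic) and Polr3b (5.95, 5.15 and 4.51; 5.84, 6.15 and 5.63) overlapped between groups, with log2 fold changes of −0.052 (SE 0.13) and 0.15 (SE 0.13). Taken as a ratio within a library and without a test, Polr3b to Polr3a was 1.25, 1.16 and 1.20 in the controls and 1.36, 1.49 and 1.42 with the mimic, so that the ratio varied less among the controls than either subunit did. For the other enzymes the ratio of the second largest to the largest subunit overlapped between groups. That of Polr1b to Polr1a was 0.671, 0.672 and 1.95 in the controls and between 0.771 and 0.839 with the mimic. How often the ratio of other gene pairs separates the groups was not examined. Of single genes, 12.6% were higher and 7.49% lower without overlap.

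Polr3c, Polr3f and either Polr3g or Polr3gl form a trimer that polymerase III needs to start transcription. Polr3f, the member with the 8mer site, read 3.04, 3.42 and 4.52 FPKM in the controls and 4.26, 4.49 and 4.54 with the mimic. NC 3 lay among the mimic libraries, and NC 1 and NC 2 under them (0.23, SE 0.15; limma, unadjusted p = 0.163, adjusted p = 0.518). Polr3c read 20.9, 19.2 and 14.9 and then 20.02, 19.3 and 20.6, with only NC 3 apart. Polr3g, which is prominent in stem cells and dividing cells, and its paralogue Polr3gl, which predominates in most differentiated tissues, had means of 9.27 ± 1.72 and 36.0 ± 5.85 FPKM in the controls and 8.34 ± 0.981 and 31.6 ± 3.48 with the mimic (SD, n = 3). Polr3gl was thus the more abundant of the pair in every library. Their ratio was 0.259 ± 0.036 in the controls and 0.264 ± 0.006 with the mimic (SD, n = 3).

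Among the remaining polymerase III subunits, Polr3e and Polr3d form the dimer that resembles the initiation factor TFIIF. Polr3e read 3.05, 2.71 and 3.83 FPKM in the controls and 4.19, 4.17 and 3.12 with the mimic, with mimic 1 and 2 above all controls and mimic 3 among them (0.20, SE 0.16). Polr3d read 1.08, 1.42 and 0.191 FPKM and then 1.31, 1.013 and 1.34. The value in NC 3 corresponds to 8 recovered fragments against 48 to 68 in the other libraries, and the log2 fold change of 0.29 (SE 0.27) became −0.016 without that library. Polr3k, which takes part in RNA cleavage and termination, differed by 0.0996 (SE 0.18).

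The subunits particular to polymerase I had low levels. Polr1a, the largest, read 3.18, 2.85 and 1.64 FPKM in the controls and 2.96, 2.71 and 2.67 with the mimic, and Polr1b read 2.13, 1.92 and 3.19 and then 2.42, 2.27 and 2.06. NC 3 was thus the lowest library for one catalytic subunit and the highest for the other, and the mimic libraries lay between the controls. Polr1e, the PAF53 subunit of the TFIIF-like dimer of polymerase I, read 3.11, 2.96 and 3.80 FPKM in the controls and 2.56, 2.40 and 2.34 with the mimic. Its groups did not overlap, and NC 3 was the highest library (−0.32, SE 0.14; limma, unadjusted p = 0.0503, adjusted p = 0.379). Polrmt, on chromosome 10, read 6.53, 5.05 and 3.82 FPKM in the controls and 5.26, 4.54 and 5.20 with the mimic (−0.0098, SE 0.18).

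The separate standing of NC 3 showed in the members as well. In 25 of the 29 subunit genes (86.2%; 65.2% of all tested genes) the FPKM of NC 3 lay nearer to the mimic mean than to the mean of NC 1 and NC 2. Leaving it out gave 11 calls among the members by limma. The 10 lower ones (12.2% of all genes were called lower) were Polr2e (log2 fold change −0.98, adjusted p = 0.00499), Polr2j (−0.89), Polr2l (−0.84), Polr2i (−0.63), Polr2f (−0.60), Polr2g (−0.55), Polr2c (−0.47), Polr2h (−0.39), Polr1d (−0.37) and Polr1c (−0.34), with adjusted p up to 0.0308. All 10 are subunits of polymerase II or shared ones, and none carries the catalytic centre. The single higher one (11.6%) was Polr3f (0.36, adjusted p = 0.0492). These calls rest on removing a library whose values mostly lay nearer to the mimic mean than to that of NC 1 and NC 2. In Polr2e and Polr2j NC 3 was even under every mimic library. It read 6.57 FPKM against a mimic mean of 9.65 for Polr2e, and 1.60 against 3.84 for Polr2j. The macrophage markers Cd68, Lyz2 and Spi1 were called lower in the same fit.

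Leaving out NC 3 and mimic 3 together, an alternative chosen after seeing the data, gave 13 calls among the members, 11 lower (19.9% of all genes) and 2 higher (23.1%). Weighting the libraries by their fit, where NC 3 had a weight of 0.086 and NC 2 5.44, gave 12 lower (24.1%) and 3 higher (27.8%). With the other 5 libraries left out singly, limma called 0 members. Scaling bore on the weaker threshold too: at an unadjusted p under 0.05, median-ratio scaling gave 9 lower members (7.64% of all genes) and 0 higher (5.53%), where all genes were split into 777 lower and 562 higher instead of 535 and 809.

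**Figure D3:**
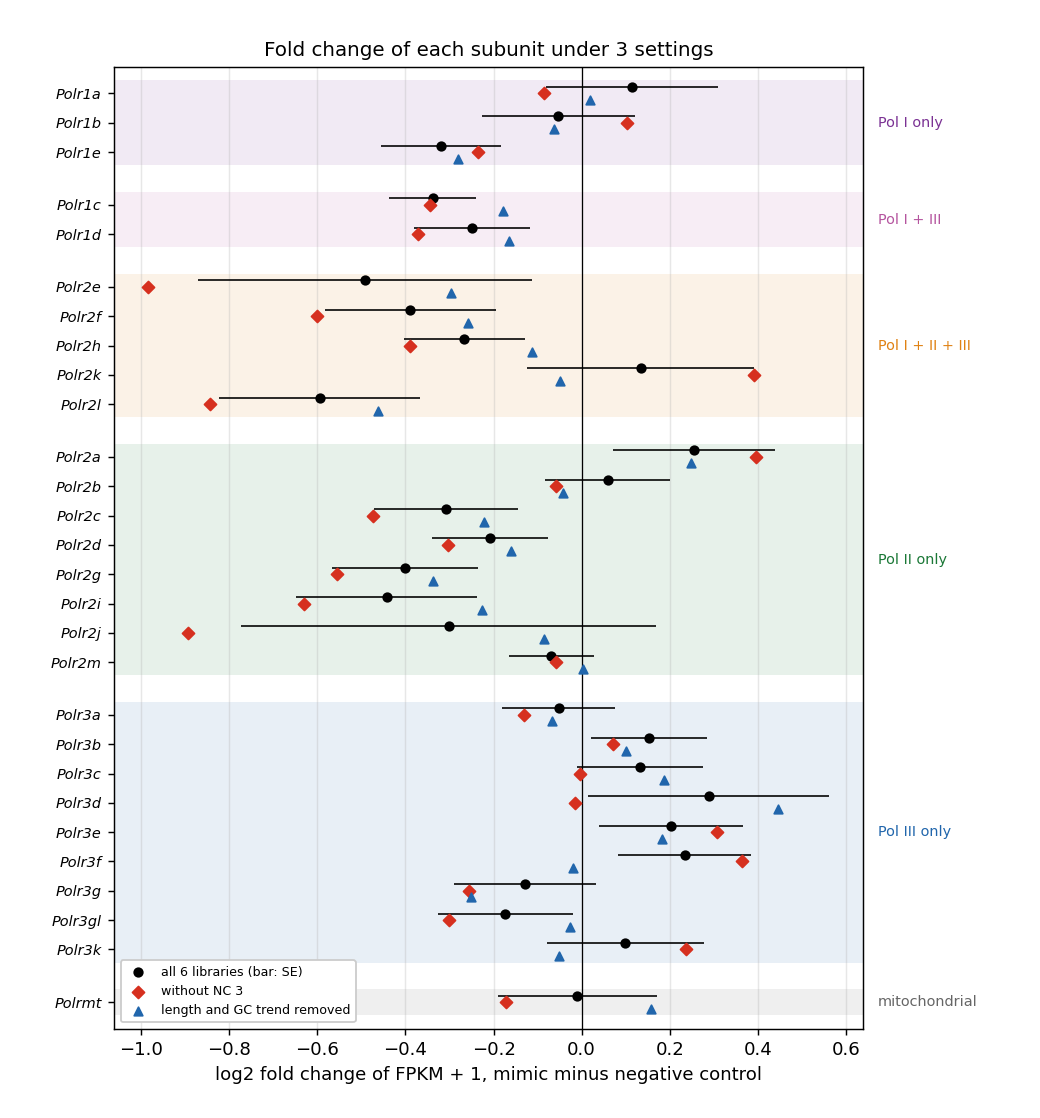
Log2 fold change of FPKM + 1, mimic minus negative control, for 28 subunit genes with all 6 libraries (black, bar: SE), without NC 3 (red diamonds) and with the trend on exon length and GC removed (blue triangles). Without NC 3 Polr2e, Polr2j and Polr2l lie furthest left, at −0.98, −0.89 and −0.84, and with the trend removed they lie at −0.30, −0.086 and −0.46.

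Fold changes went with gene length across the whole table and among the subunit genes. Over 10128 genes with a length and a GC content, the Spearman correlation of the log2 fold change was 0.38 with exon length and −0.55 with GC. Over the 29 members it was 0.54 and −0.41, and with the trend of the whole table removed that with exon length was 0.44; genes within a library are not independent and share its depth and composition. All genes with a length were split by it into 5 classes of about equal size. In the shortest class, 45 to 2239 exon bases, the median log2 fold change of all genes was −0.12, and of the 8 subunit genes there 7 were lower (median −0.28). In the next class it was −0.060, with 5 of 8 subunit genes lower (median −0.16). In the third it was 0.0069, with 4 of 6 lower (median −0.013), and in the fourth 0.099, with 3 of 5 lower (median −0.052), among them Polr2c at −0.31. In the longest class it was 0.19, with neither Polr1a nor Polr3f lower.

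With the trend on length and GC removed from each library, 20 of the 29 were lower (median −0.063; all genes 0.0008). All 5 subunits common to the nuclear enzymes were then lower (median −0.26), the polymerase II subunits had a median of −0.12 and those of polymerase III 0.0050. By limma 0 members passed in that fit, where 3 lower ones (4.96% of all genes) and 0 higher ones (4.73%) had an unadjusted p under 0.05 and every adjusted p was 0.45 or more. They were Polr2g (−0.34), Polr2l (−0.46) and Polr2c (−0.22). With NC 3 left out as well, Polr2e alone passed (−0.64, adjusted p = 0.0238; 2.79% of all genes were called lower and 1.01% higher). Polr2g and Polr2l then stood at −0.43 and −0.61 (limma, adjusted p = 0.0509 and 0.0511). The part of length, GC and NC 3 in the lower values of the small subunits was not tested.

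**Figure D4:**
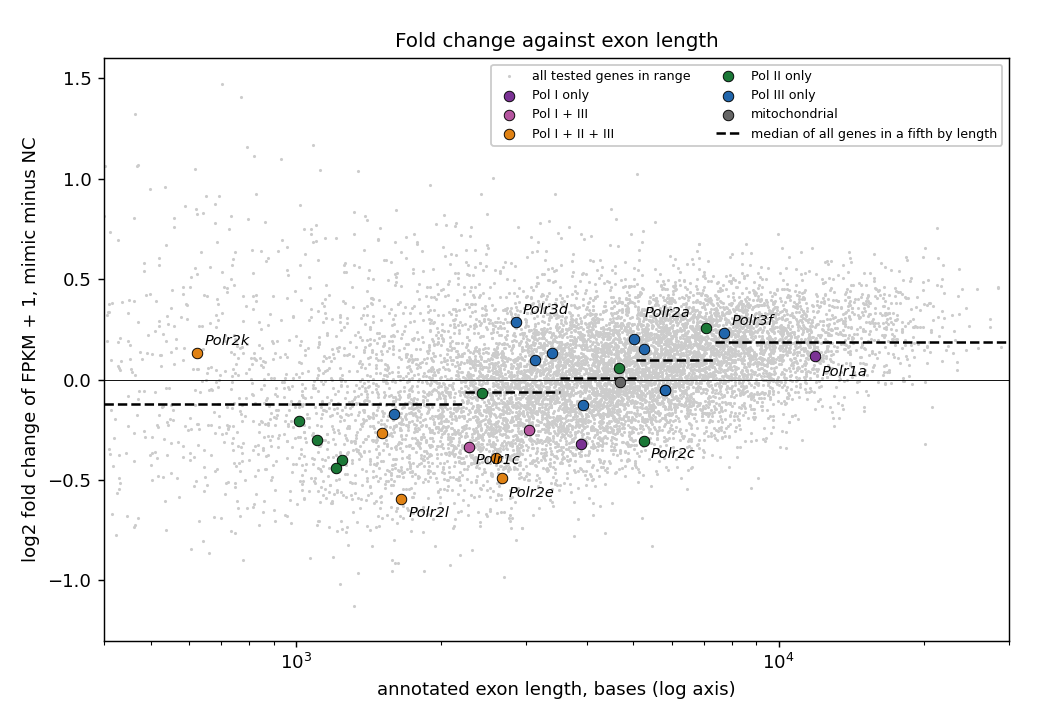
Log2 fold change against annotated exon length (log axis): grey dots are 10035 tested genes with 400 to 30000 exon bases (102 lie outside), coloured dots 28 subunit genes by enzyme, and dashed lines the median of all genes in each of 5 length classes. The dashed medians climb from −0.12 to 0.19, and the orange dots of subunits common to all nuclear enzymes lie under them in 4 of 5 genes, the exception being Polr2k.

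Genes that work with the polymerases were set beside them from lists chosen with earlier results of these data known. By limma and by voom 0 genes of these lists passed, with p adjusted over all genes. The lists held 4 to 29 tested genes. At an unadjusted p under 0.05 limma had 0 to 4 higher genes per list (7.96% of all genes) and 0 to 3 lower ones (5.26%). Leaving out NC 3 alone ended that count of 0: limma then called 4 assembly factors lower, 5 pausing and elongation factors higher and 5 lower, and 2 general factors of polymerase II higher and 3 lower. It also called 3 polymerase III factors higher and 1 lower, 2 mitochondrial genes higher, 1 subunit with another symbol lower and 0 polymerase I factors (11.6% of all genes were called higher and 12.2% lower). Of 4 subunits that go by other symbols in the annotation, 3 were lower: Znrd1, the small cleavage subunit of polymerase I, read 9.16, 12.9 and 8.80 FPKM in the controls and 6.93, 7.72 and 4.52 with the mimic. Its groups did not overlap (−0.62, SE 0.22), as was so for 7.49% of all genes in this direction. Twistnb, a stalk subunit of the same enzyme, was the higher one (0.44, SE 0.23; 0.21 with the trend removed). Factors of polymerase I numbered 3 higher and 3 lower (median 0.033), with the promoter factor subunit Taf1b at 0.18 (SE 0.15) and the upstream binding factor Ubtf at −0.17 (SE 0.19; −0.35 without NC 3).

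The assembly factors were lower in 8 of 12 (median −0.12), and 3 lower ones (5.26% of all genes) had an unadjusted p under 0.05. Ruvbl2, an ATPase of the assembly chaperone complex, read 52.5, 49.6 and 37.0 FPKM in the controls and 32.6, 31.5 and 32.9 with the mimic (−0.49, SE 0.15), and its partner Pih1d1 stood at −0.45 (SE 0.13). Both lay without overlap between groups, as 7.49% of all genes did in this direction, and stood at −0.29 and −0.20 with the trend removed. The general factors of polymerase II were higher in 18 of 29 (median 0.11), beside 56.3% of all genes, and in 15 of 29 without NC 3. Among the higher ones were the largest TFIID subunit Taf1 (11.6, 12.04 and 11.2 FPKM; 14.7, 14.7 and 14.7 with the mimic; 0.32, SE 0.10) and the TFIIH subunit Gtf2h2 (0.41, SE 0.15). Their fold changes shrank to 0.086 and 0.18 once the trend on length and GC was removed.

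Pausing and elongation factors were evenly divided, 11 higher and 13 lower (median −0.014). The NELF subunit Nelfe was lower without overlap (−0.46, SE 0.13) and the elongation scaffold Aff4 higher without overlap (0.36, SE 0.11). Of all genes, 7.49% were lower and 12.6% higher without overlap. With the trend removed Nelfe and Aff4 stood at −0.23 and 0.10. Polymerase III factors were higher in 10 of 15 (median 0.071; 7 of 15 without NC 3), with the TFIIIC subunit Gtf3c3 at 0.39 (SE 0.12) and the TFIIIB subunit Bdp1 at 0.38 (SE 0.13). Both shrank, to 0.19 and 0.12, with the trend removed. All 10 mitochondrial transcription genes were higher in the mean (median 0.16), against 5728 of all 10166 genes. With the trend removed 7 of the 10 were higher (median 0.13), and without NC 3 also 7. They included Mterf3, a regulator of mitochondrial transcription (0.40, SE 0.15; 0.21 with the trend removed), and the initiation factor Tfb2m (0.31, SE 0.12; also 0.21), whereas Polrmt itself was at −0.0098.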

How the data were processed

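RNA of 6 libraries was sequenced. The deposited table holds FPKM per Ensembl gene, made by the authors; fastp, HISAT2, DESeq2 and mm10 are named in the submitters' processing notes. The sources used here give no versions, annotation, counting tool, strand setting or filter. Symbols, exon lengths, GC and 3′ UTRs came from GENCODE M21 (GRCm38), which matched 16582 of 16665 identifiers. The 10166 genes whose FPKM averaged 1 or more were transformed to log2(FPKM + 1) and tested by limma (version 3.58.1; R 4.3.3), letting the prior variance follow the mean level. Tests were two-sided, with Benjamini-Hochberg adjustment over all of them and a threshold of 0.05. The fit was tested on simulated data with planted changes larger than that of any member and with gene spreads capped at their median. That run therefore does not show the power to call changes of the size seen here. Depth was recovered from low values, of which 98.5% to 99.0% up to 20 fragments were whole within 0.1 fragment. The length and GC trend was removed per library by regression on splines. Members, lists and alternatives were chosen with earlier results of these data known. Values in every library are given for catalytic and shared subunits, Polrmt and the 4 members with the smallest p in each direction and, where the text turns on them, for others chosen after their values were seen. Of each other list the 2 genes with the smallest p are named. Alternatives covered pseudocount, filter, scaling, array weights, voom, the trend, the replicate block and single libraries left out. Counts and medians cover all 29 members; the values of 1 of them are not reported here or plotted. Same-numbered libraries deviated together from their group means (r = 0.29, 0.18 and 0.34 for numbers 1, 2 and 3), but NC 2 correlated more with mimic 1 (0.31) than with mimic 2, and the labels do not say what a number marks.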

Additional observations from a re-analysis of the deposited data

How the results depend on the processing

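Among the members 0 were called with all 6 libraries as deposited, under both pseudocounts, both filters, both scalings, the replicate block (0 calls also over all genes), voom and removal of the length and GC trend with or without the replicate block. Leaving out single libraries gave 0 to 11 calls among members and 0 to 2412 over all genes, the higher numbers without NC 3. Array weights, whose estimation stopped before convergence, gave 15 and 5276, leaving out NC 3 and mimic 3 together 13 and 4377, and trend removal without NC 3 1 and 385. The median of the subunits common to polymerases I and III moved from −0.29 to −0.17 with the trend removed, also with the replicate block, and to −0.12 without NC 3 as well.

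No member named here was called in the main fit or in a fit that changed its sign. Polr2j (−0.89) and Polr3f (0.36) kept their sign without NC 3 and were called there. They were also called with array weights and with NC 3 and mimic 3 left out. With array weights the members whose sign changed were Polr1a (−0.016), Polr1b (0.17) and Polr3d (−0.062). With NC 3 and mimic 3 left out the sign changed in Polr1a (−0.066), Polr1b (0.15), Polr3c (−0.023) and Polr3d (−0.056). With the trend removed, with or without the block, it changed in Polr2k (−0.049), Polr2b (−0.041), Polr2m (0.0026), Polr3f (−0.019), Polr3k (−0.051) and Polrmt (0.16). With the trend removed and NC 3 left out it changed in Polr1a (−0.11), Polr1b (0.19), Polr2b (−0.14), Polr2m (0.10) and Polrmt (0.15). With single libraries left out, the members whose sign changed had ranges of −0.086 to 0.24 for Polr1a, −0.16 to 0.10 for Polr1b, −0.055 to 0.39 for Polr2k, −0.059 to 0.13 for Polr2b, −0.89 to 0.089 for Polr2j, −0.13 to 0.0079 for Polr3a, −0.0028 to 0.23 for Polr3c, −0.016 to 0.49 for Polr3d, −0.070 to 0.24 for Polr3k and −0.17 to 0.15 for Polrmt. The cause was not tested. Precision is limited by 3 libraries a group and, for Polr3d, Polr2j and Polr2l, by few fragments.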
